A study of Mus musculus with 45 samples.

Results

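Motile cilia are hair-like projections built on a ring of doublet microtubules, the axoneme, and they beat because dynein motors slide neighbouring doublets past each other. In the female reproductive tract they are known from multiciliated cells of the oviduct, next to secretory cells, and from scattered cells of the uterine epithelium. The program that builds them is switched on by Mcidas, Foxj1 and the RFX factors. The expression of 40 genes of this kind was followed in the uterus of wildtype (WT) and Plag1 knockout (KO) mice. They were chosen by symbol, as regulators, dynein arm components, radial spoke, central pair and ruler proteins, tektins and other axonemal proteins, and tubulin, transport and dynein light chain genes. Of the 40, 39 had an entry in the count table and 38 had at least 1 count, out of 24422 genes listed and 17378 with counts. Dnah12, an inner arm dynein heavy chain, had no entry, and Mcidas, a coactivator that commits cells to multiciliation, was at 0 in every library.

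All animals were sexually mature CD-1 females, an outbred stock, that had been superovulated with pregnant mare serum and, 2 days later, human chorionic gonadotropin. They were killed on the following day. The KO mice lacked Plag1, a zinc finger transcription factor, in all tissues from conception onwards. From each of 7 WT and 7 KO mice there was a piece of intact uterine horn (uterus), the mucosa scraped from an opened horn (endometrium) and the wall left behind (myometrium), which gave 6 groups of 7 mice. The comparison of the genotypes asked whether loss of Plag1 affected the uterus.

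The libraries were made by STRT, which reads the 5′ ends of polyadenylated transcripts and counts molecules by unique identifiers. The 45 libraries held 256298 to 1222627 gene counts each. KO mouse 13 had 3 endometrium libraries and WT mouse 12 had 2 myometrium libraries, and these were summed, which left 42 samples. Levels are given as CPM, gene counts brought to one depth with TMM factors over all 42 samples, and 3 counts, taken as the smallest level a sample could show, were 1.23 to 11.7 CPM before TMM scaling. Plag1 itself had 0 or 1 count in each sample of either genotype and could not be used to check the labels. The samples matched their layers on the whole. Summed over Cnn1, Myh11, Des and Acta2, markers of smooth muscle, the level was 14585 ± 6137 CPM in WT myometrium and 1957 ± 2314 CPM in WT endometrium (SD, n = 7). It was 15693 ± 3588 CPM in KO myometrium and 1600 ± 2929 CPM in KO endometrium (SD, n = 7). The endometrium samples of KO mouse 13, at 8223 CPM, and of WT mouse 3, at 6974 CPM, stood above the other endometrium samples in this sum.

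One sample stood apart in the cilia genes. In the endometrium of WT mouse 8, 21 of the 38 genes with counts had their highest level of all 42 samples (55.3%), against 750 of the 17378 genes with counts in the table (4.32%). Some of the 21 rested on few counts or were highest by a small margin, as given by role below. For 18 of the 38 (47.4%), at least 50% of all counts in the series came from this sample, against 254 of the 17378 (1.46%). It held counts of 32 of the cilia genes, while the other 41 samples held counts of 7 to 19 (median 13). Its depth of 646405 gene counts was the median of its group. The results that rest on this sample are therefore given with and without it.

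The promoters of 4 genes that were concentrated in this sample and hold an RFX motif, and of Cfap43, which was not concentrated there and was the single member with a forkhead motif, are shown first. The sequences are those of RefSeq on build GRCm38.p6, a window that spans the annotated start of the gene, printed on the strand of the gene. Capitals mark GTTGCC, the core of the X-box that RFX factors bind, or its reverse complement GGCAAC. In Cfap43 they mark GTAAACA, the reverse complement of TGTTTAC, a sequence bound by forkhead factors such as Foxj1. Fam183b holds GTTGCC at 2 positions, and in Pifo, which has 2 promoter entries, and in Cfap43 the match lies on the opposite strand. The intervals on this build are chr9:44240427-44240726 on the plus strand for Ccdc153, chr11:58801911-58802210 on the minus strand for Fam183b and chr3:106001448-106001747 on the minus strand for Pifo. They are chr8:116504765-116505064 on the plus strand for Dynlrb2 and chr19:47837312-47837611 on the minus strand for Cfap43.
Ccdc153: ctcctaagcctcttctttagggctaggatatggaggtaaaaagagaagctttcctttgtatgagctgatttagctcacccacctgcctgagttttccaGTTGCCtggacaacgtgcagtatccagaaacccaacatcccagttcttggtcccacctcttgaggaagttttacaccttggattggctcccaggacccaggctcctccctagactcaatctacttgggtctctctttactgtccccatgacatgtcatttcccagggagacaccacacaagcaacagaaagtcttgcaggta
Fam183b: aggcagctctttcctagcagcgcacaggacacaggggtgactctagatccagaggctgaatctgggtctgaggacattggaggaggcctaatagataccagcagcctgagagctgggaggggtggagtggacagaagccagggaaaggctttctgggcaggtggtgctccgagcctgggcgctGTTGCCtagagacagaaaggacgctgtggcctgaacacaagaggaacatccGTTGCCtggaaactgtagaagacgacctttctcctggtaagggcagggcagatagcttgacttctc
Pifo: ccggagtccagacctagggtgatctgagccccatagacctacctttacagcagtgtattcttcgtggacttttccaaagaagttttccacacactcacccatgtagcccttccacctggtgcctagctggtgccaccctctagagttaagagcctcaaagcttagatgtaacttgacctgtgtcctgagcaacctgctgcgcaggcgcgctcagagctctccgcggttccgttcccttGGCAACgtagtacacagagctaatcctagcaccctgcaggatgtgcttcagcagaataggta
Dynlrb2: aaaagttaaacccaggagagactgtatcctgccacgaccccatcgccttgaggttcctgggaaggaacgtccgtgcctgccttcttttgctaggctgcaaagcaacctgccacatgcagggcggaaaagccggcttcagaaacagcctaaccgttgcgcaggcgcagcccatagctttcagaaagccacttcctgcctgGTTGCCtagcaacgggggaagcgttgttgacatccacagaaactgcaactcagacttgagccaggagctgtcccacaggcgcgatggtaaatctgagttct
Cfap43: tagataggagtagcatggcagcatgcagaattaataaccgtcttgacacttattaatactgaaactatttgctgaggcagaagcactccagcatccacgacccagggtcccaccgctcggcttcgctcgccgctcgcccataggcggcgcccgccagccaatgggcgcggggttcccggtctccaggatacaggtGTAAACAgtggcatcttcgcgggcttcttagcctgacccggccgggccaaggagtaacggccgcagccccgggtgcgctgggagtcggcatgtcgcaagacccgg

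The promoter table held 35 of the 40 listed genes, in 41 entries, and Foxj1, Rsph1, Rsph4a, Tppp3 and Ift80 were not among them. GTTGCC, searched on both strands, was found in 18 of the 41 member promoters (43.9%) and in 4111 of all 32851 promoters of the same length (12.5%). TGTTTAC, searched on both strands, was found in 1 of the 41 (2.44%) and in 3.65% of all. The 2 motifs do not overlap in their letters. Dnali1, Tctex1d4, Cfap126, Morn5 and Ccdc40 were concentrated in the endometrium of WT mouse 8 and held no GTTGCC in this window. Dnah9 and Spag17, which had few counts, did likewise. Conversely, Rfx2, Rfx3, Tekt2 and Tekt4 held GTTGCC and were not concentrated in that sample. The same was true of Hydin, Dnah10 and Dnah7a, which had few counts, and Mcidas, which had none, held it too. The motif was thus found in concentrated genes and in others. The Pifo entry that is not shown held no match. A match of these letters is a description and was not tested as a binding site.

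Of the regulators, Foxj1, the forkhead factor that activates genes of motile cilia (NCBIM37, chr11:116192018-116196713, minus strand), had 66 counts in the whole series and 47 of them were in the endometrium of WT mouse 8. Its level there was 59.7 CPM (95% exact Poisson interval 43.9 to 79.4, counting error only). The next highest sample was the endometrium of KO mouse 6 at 7.58 CPM, from 5 counts. Foxj1 had a count in 8 of the other 41 samples and at least 3 counts in 2 of them. Its group mean was 8.70 ± 22.5 CPM in WT endometrium (SD, n = 7) and 0.20 ± 0.49 CPM without mouse 8 (SD, n = 6), against 1.80 ± 2.69 CPM in KO endometrium (SD, n = 7). Levels under 3 counts could not be told from 0 at this depth.

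The 2 RFX factors, which also act in primary cilia, were spread more widely. Rfx2 had 197 counts, with 7 in the endometrium of WT mouse 8, and its WT endometrium mean was 3.73 ± 2.93 CPM (SD, n = 7), or 2.87 ± 2.03 CPM without mouse 8 (SD, n = 6). The group means ranged from 3.40 ± 3.57 CPM in KO uterus to 7.01 ± 5.39 CPM in KO myometrium (SD, n = 7). Its highest sample was the endometrium of KO mouse 13, at 27.2 CPM from 65 counts, and the 3 libraries of that sample held 26, 11 and 28 of them. Without that mouse the Rfx2 mean in KO endometrium went from 6.91 ± 9.59 CPM (SD, n = 7) to 3.53 ± 3.79 CPM (SD, n = 6). Rfx3 had 47 counts, none of them in the endometrium of WT mouse 8, and its group means lay between 0.93 and 2.73 CPM.

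Tubb4b had the most counts of any member in the endometrium of WT mouse 8 (222 of its 6186), and Tppp3 had 101 of 3008, but neither was highest there. The genes most concentrated in that sample encode axonemal proteins and dynein light chains. Ccdc153 (chr9:44048760-44055389, plus strand), which encodes an axonemal protein, had 155 of its 158 counts there, a level of 197 CPM (95% interval 167 to 230). Its highest level in the other samples was 2.32 CPM, from 2 counts in the uterus of KO mouse 14. Fam183b (chr11:58606299-58615462, minus strand), a gene of multiciliated cells, had 138 of 154 counts there, at 175 CPM (147 to 207), against at most 3.99 CPM elsewhere. Both genes were thus near the detection limit in the other 41 samples.

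Pifo (chr3:105799875-105817523, minus strand), which encodes a ciliary protein, had 121 of its 134 counts in that sample, at 154 CPM (128 to 184), and at most 5.83 CPM elsewhere. Cfap126, a cilium-associated protein of the axoneme (chr1:173044049-173057098, plus strand), had 71 of 136 counts there, at 90.2 CPM (70.4 to 114). It was less concentrated than Pifo, since it had at least 3 counts in 13 of the other 41 samples, the highest of which was the uterus of KO mouse 9 at 6.57 CPM. Dynlrb2, a dynein light chain (chr8:119028915-119039796, plus strand), had 89 of 113 counts in the endometrium of WT mouse 8, at 113 CPM (90.8 to 139). Its next highest sample was the myometrium of the same mouse, at 5.99 CPM from 3 counts.

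Dnali1, an axonemal dynein light intermediate chain, had 85 of 98 counts in the endometrium of WT mouse 8, at 108 CPM (86.2 to 133), against at most 3.98 CPM elsewhere. Tctex1d4, a dynein light chain, had 78 of 88 counts there, at 99.1 CPM (78.3 to 124), against at most 3.85 CPM elsewhere. Both overlap another gene on the NCBIM37 annotation, and the use of strand in counting was not stated. Gnl2, which overlaps Dnali1, was at 26.7 CPM in that sample and averaged 15.9 to 28.6 CPM over the 6 groups. Plk3, which overlaps Tctex1d4, was at 2.54 CPM there. The part of the overlapping genes in these counts was not tested.

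Some of the genes with lower counts followed the same sample. Morn5 had 25 of 42 counts there, Tekt4 19 of 65 and Tekt1 17 of 30, the last 2 being tektins, filament proteins of the doublets. Ccdc113 had 14 of 25 counts there, Ccdc40, part of the molecular ruler that spaces dynein arms, 13 of 22, and Cfap44 8 of 9. Rsph4a, a radial spoke head protein, had all 5 of its counts there and Spag16, of the central pair, both of its 2. Spag6 had 6 of 10, but near-identical copies of this gene make its counts uncertain. Others did not follow it and had a higher level in another sample. Of these, the tektin gene Tekt2 had 3 of 57 counts there, Ccdc114 3 of 43, Ccdc39 5 of 32 and Cfap52 2 of 18.

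**Figure D1:**
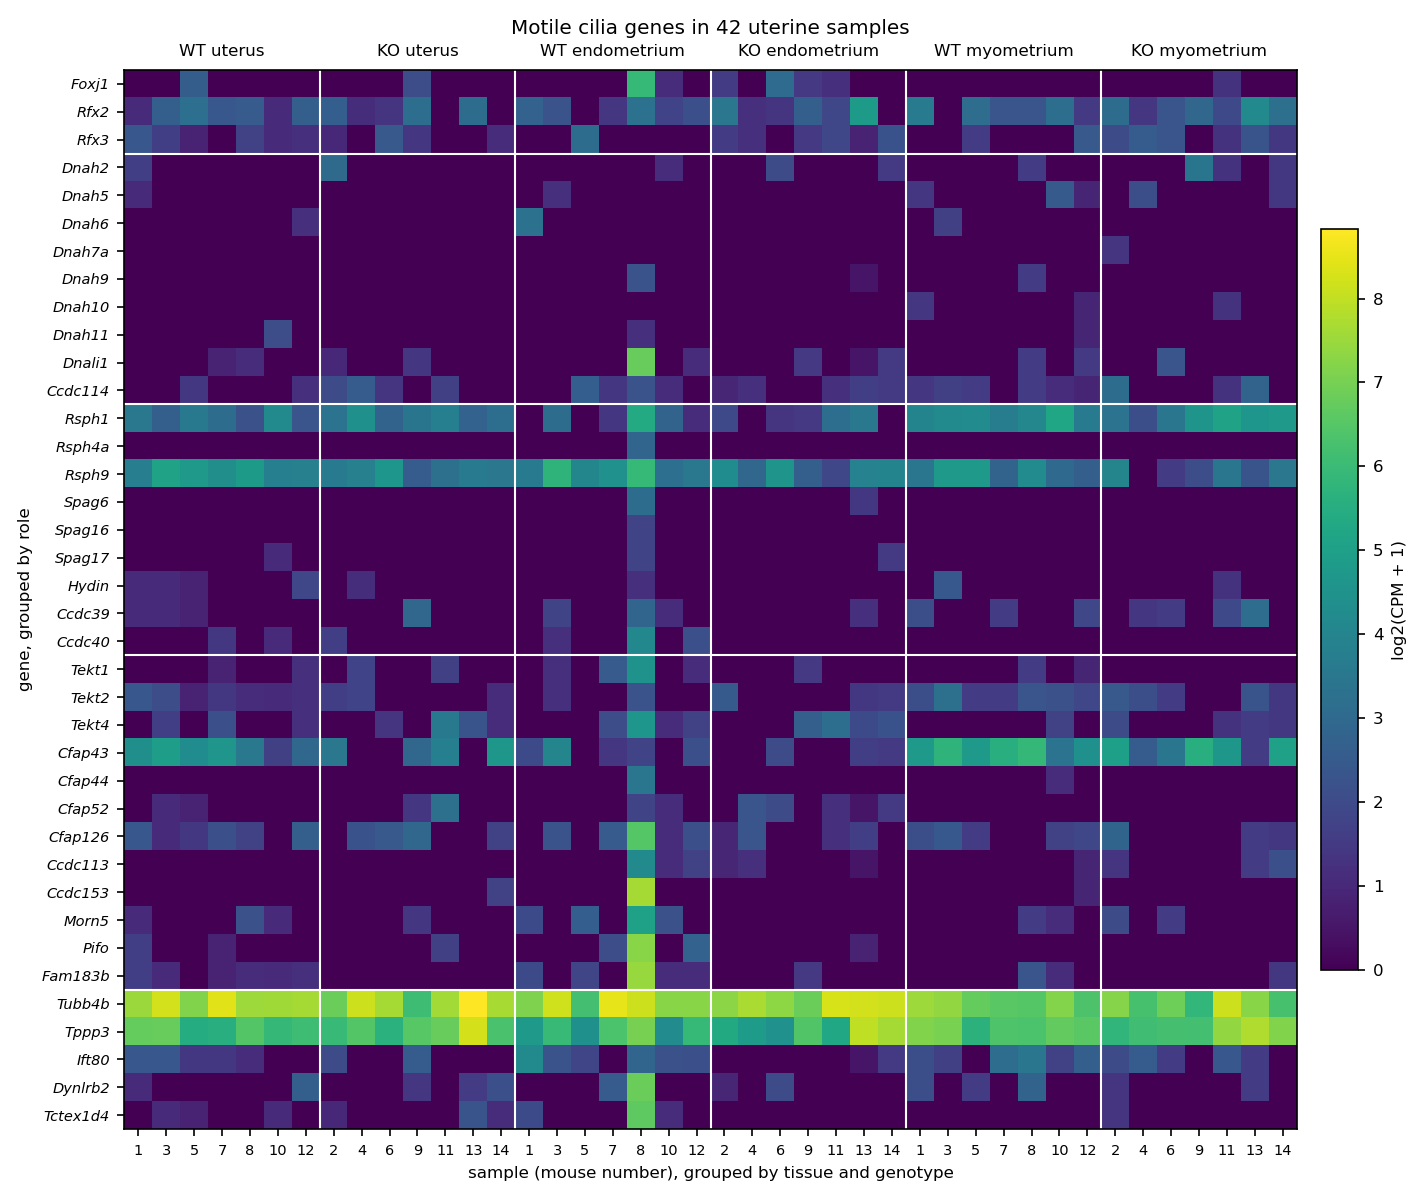
Level of each motile cilia gene with counts (vertical, grouped by role) in each of the 42 samples (horizontal, grouped by tissue and genotype), as colour on a log2(CPM + 1) scale. The column of the endometrium of WT mouse 8 is bright across most roles, while Tubb4b and Tppp3 are bright in every sample.

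By role, the share of genes with their highest level in the endometrium of WT mouse 8 differed. It was 9 of 12 tektins and other axonemal proteins, 7 of 9 radial spoke, central pair and ruler proteins, and 2 of 9 dynein arm genes with counts. It was 2 of 5 tubulin, transport and light chain genes and 1 of 3 regulators with counts. Not each of these was a clear maximum. Spag16 and Spag17 rested on 2 counts each, under the limit of 3 counts, and Dnah9 rested on 3. Rsph1 (40.6 against 35.2 CPM) and Rsph9 (59.7 against 52.1 CPM) had 95% Poisson intervals that held the level of the next sample. The dynein heavy chains, the motor subunits, were hardly counted at all. Dnah2, Dnah5, Dnah6, Dnah7a, Dnah9, Dnah10 and Dnah11 had 19, 11, 5, 1, 5, 3 and 5 counts in the whole series, too few to compare. Only 24 of the 38 genes had at least 20 counts in all, and 12 of these 24 had at least 50% of their counts in that sample.

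**Figure D2:**
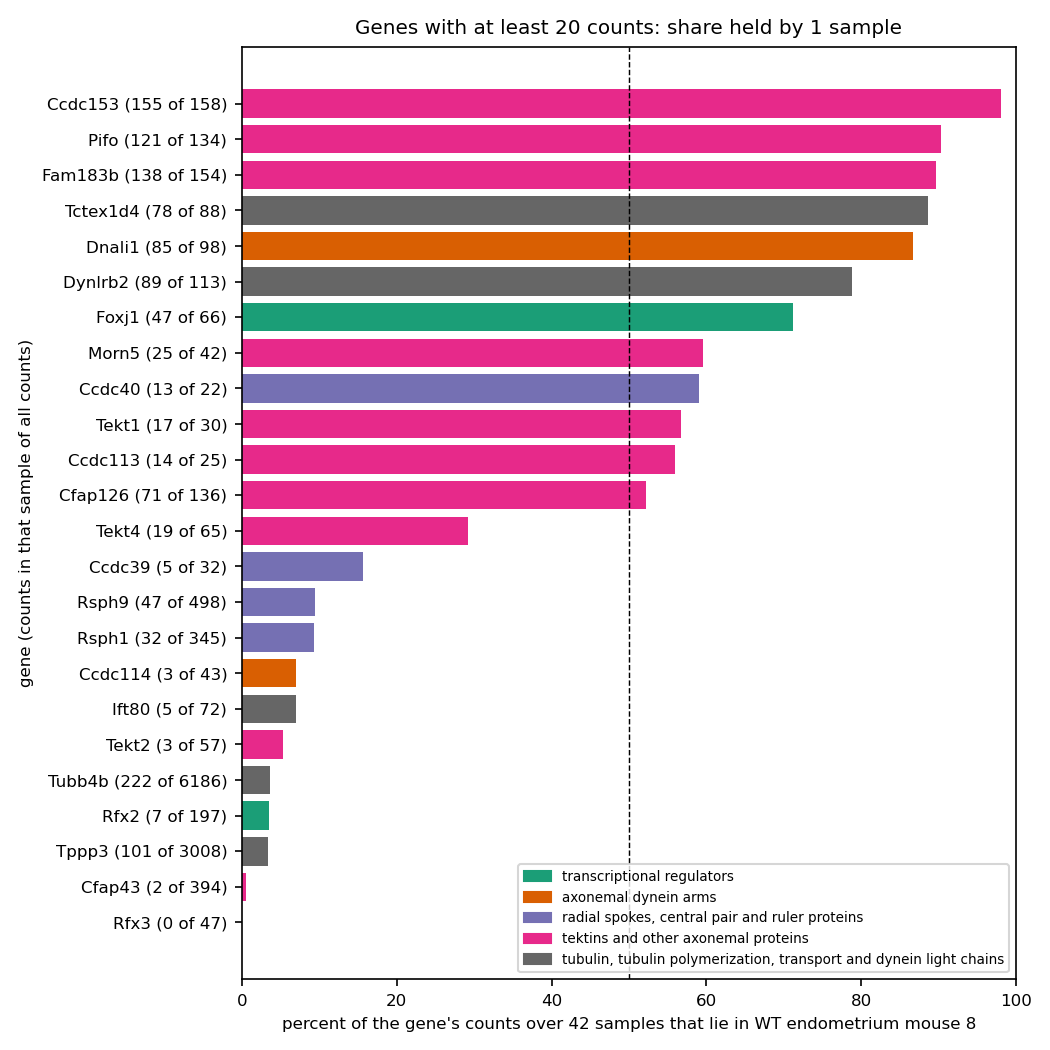
Percent of each gene's counts over the series that came from the endometrium of WT mouse 8 (horizontal), for the 24 genes with at least 20 counts (vertical), coloured by role, with a dashed line at 50%. Ccdc153, at 98.1%, Pifo, at 90.3%, and Fam183b, at 89.6%, are near the right edge, and Cfap43, at 0.508%, is at the left.

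Summed over all members, the endometrium of WT mouse 8 was at 1688 CPM, and the other 41 samples were at 132 to 795 CPM (median 301). Without Tubb4b, which made up much of the sum in most samples, it was at 1406 CPM and the others at 47.5 to 343 CPM (median 138). A narrower sum of Foxj1, Fam183b, Pifo, Tekt1, Ccdc153 and Dynlrb2, genes that mark multiciliated cells, was 720 CPM from 567 counts in that sample. The other 41 samples lay between 0 and 12.9 CPM, from 0 to 8 counts. The uterus of the same mouse was at 1.18 CPM from 1 count and its myometrium at 12.0 CPM from 6 counts, so the level seen in its endometrium sample was not present in its other 2 samples. The narrower sum leaves out Rsph1, which was on the same list of 7 markers and had 32 of its 345 counts in that sample. With Rsph1 the sum was 761 CPM there and 0 to 36.3 CPM in the other 41 samples. In bulk tissue, fewer cells of a type and less RNA per cell cannot be told apart.

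Other genes moved with the cilia genes in that sample. Ovgp1, the oviductal glycoprotein made by secretory cells of the oviduct, was at 5024 CPM there, from 3956 of its 5563 counts. The other WT endometrium samples were at 7.75 to 100 CPM and the KO endometrium samples at 10.5 to 467 CPM. The sample with 467 CPM, the endometrium of KO mouse 9, had a sum of 5.31 CPM for the 6 ciliated cell markers. Pax8, a factor of the oviduct and the uterine epithelium, was at 77.5 CPM in the endometrium of WT mouse 8, within the 29.5 to 102 CPM of the other WT endometrium samples. Of 3 uterine gland genes with counts, the transcription factor gene Foxa2 was at 19.1 CPM there and at most 8.05 CPM elsewhere, while the protease genes Prss28, at 1026 CPM, and Prss29, at 3799 CPM, were below the 2897 and 9177 CPM of WT endometrium mouse 3. Of the 4 epithelial genes, none was the highest of all samples there. Krt18 was at 862 CPM, against up to 819 CPM in the other WT endometrium samples, and Krt8 (364 CPM), Epcam (239 CPM) and Cdh1 (14.0 CPM) lay within the range of those samples.

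Of 8 sperm and spermatid genes, 7 were at 0 in every sample, and the remaining one, Gapdhs, had 1 count, in the uterus of KO mouse 6. Of 5 cumulus and oocyte genes, Zp2 was at 0 in every sample and Zp3 had 2 counts in the series, 1 of them in the endometrium of WT mouse 8. There, Ptx3 and Has2 were at 0 and Tnfaip6 was at 7.62 CPM, within the range of the other WT endometrium samples. The summed level of 4 mesothelial genes was 54.6 CPM in that sample, the highest of the 14 endometrium samples, where it was 0 to 35.9 CPM in the other WT mice and 0 to 8.85 CPM in the KO mice. Msln (24.1 CPM, at most 13.2 in the other WT endometrium samples) and Upk3b (25.4 CPM, at most 20.3) were also highest there among WT endometrium samples. None of the 4 was the highest of all 42 samples in it, and in whole uterus the sum reached 329 CPM. The part that other cell types or neighbouring tissue had in the level of the cilia genes was not tested.

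**Figure D3:**
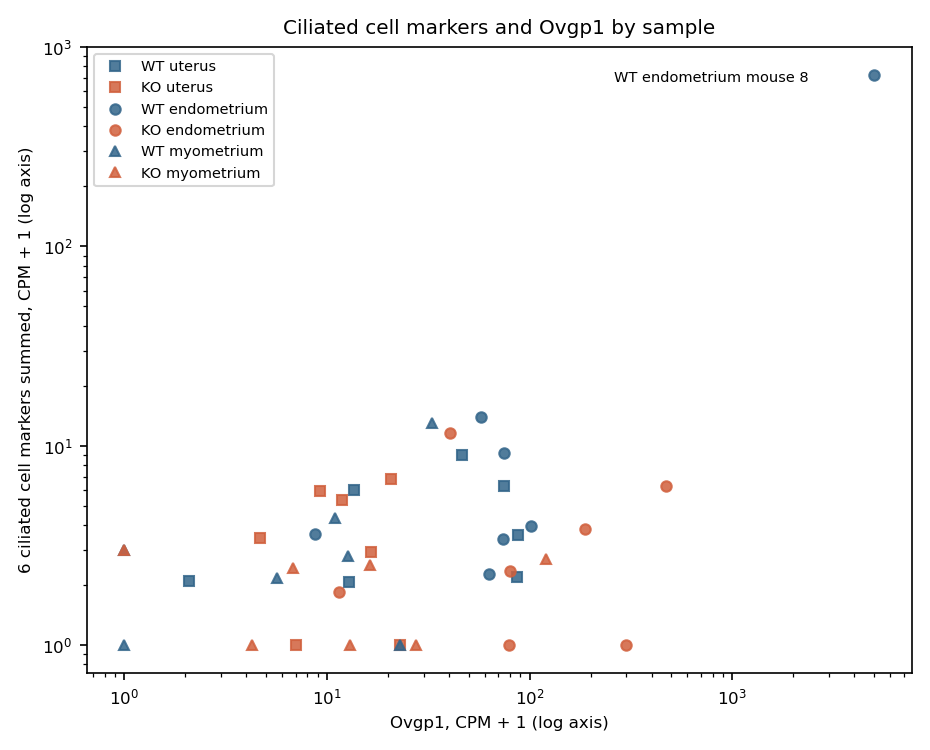
Summed level of 6 genes that mark multiciliated cells (vertical, CPM + 1, log axis) against the level of Ovgp1 (horizontal, CPM + 1, log axis), with 1 point for each of the 42 samples. The endometrium of WT mouse 8 is alone at the upper right, at 720 CPM of the markers and 5024 CPM of Ovgp1.

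Further genes of motile cilia outside the list showed the pattern in part. Of 97 such genes, 79 had an entry and 72 had counts. Of the 72, 42 (58.3%) were highest in the endometrium of WT mouse 8, against 4.32% of all genes with counts. At least 50% of the counts lay there for 22 of the 72 (30.6%), against 47.4% of the members and 1.46% of all genes. The summed level of these further genes was 1013 CPM there and 139 to 322 CPM in the other 41 samples (median 245). Capsl, which encodes a calcium-binding protein, was at 133 CPM there and at most 31.6 CPM elsewhere, and Sntn, of the ciliary tip, had 27 of its 28 counts there. The 4 genes of this list with the most counts, Cfap20 (1569), Dnal4 (1147), Rsph3a (608) and Gas8 (600), were counted in all tissues. By contrast, of 33 genes of intraflagellar transport and the primary cilium, the immotile sensory cilium of most cells, 2 (6.06%) were highest in that sample and none had 50% of its counts there.

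Over the 42 samples, the non-members whose log2 level was most like the mean of the 27 members past a low-level filter were Tmem212 (Pearson r = 0.90), Dcpp1 (0.89), Fam92b (0.87), 1110017D15Rik (0.85) and Fndc7 (0.80), followed by Fank1, Prr18, Odf3b, Cfap45 and Drc1. Each of these genes was itself high in the endometrium of WT mouse 8. Dcpp1 had 546 of its 555 counts there and Tmem212 80 of 87. Over the other 41 samples the list was a different one, led by Tlk2 (0.73), Gamt (0.70), Hspb8 (0.68), Cnn2 (0.68) and Lhpp (0.67). The median correlation over the 351 pairs of members was 0.17 over 42 samples and -0.02 without that sample.

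Apart from that sample, the cilia genes with appreciable counts were those with a broader distribution. Tubb4b, a beta tubulin of the axoneme that is also used in other microtubules, and Tppp3, a tubulin polymerization promoting protein, were counted in every sample. Tubb4b averaged 219 ± 72.1 CPM in WT uterus and 216 ± 125 CPM in KO uterus, 207 ± 105 CPM in WT endometrium and 218 ± 80.6 CPM in KO endometrium (SD, n = 7). Without mouse 8 the WT endometrium mean was 195 ± 109 CPM (SD, n = 6). In myometrium it averaged 123 ± 40.7 CPM in WT and 129 ± 76.7 CPM in KO (SD, n = 7). The groups overlapped.

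Tppp3 averaged 73.2 ± 26.8 CPM in WT uterus, 56.3 ± 39.5 CPM in WT endometrium and 98.2 ± 31.8 CPM in WT myometrium (SD, n = 7). In the KO groups it averaged 112 ± 88.8 CPM, 94.3 ± 92.1 CPM and 114 ± 62.4 CPM (SD, n = 7). KO mouse 13 was the highest sample in each KO group, at 308 CPM in uterus, 249 CPM in endometrium and 218 CPM in myometrium. Without it the KO endometrium mean was 68.5 ± 67.7 CPM (SD, n = 6), and the WT endometrium mean without mouse 8 was 44.3 ± 25.7 CPM (SD, n = 6).

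Rsph9 and Rsph1, both radial spoke head proteins, were counted in most samples. Rsph9 (chr17:46258984-46281165, minus strand) was at 12.6 to 33.2 CPM in WT uterus (median 19.7) and 4.93 to 24.1 CPM in KO uterus (median 11.4). Its annotation overlaps Mrps18a, a mitochondrial ribosomal protein gene, which averaged 172 to 262 CPM over the groups. Rsph1 (chr17:31391964-31414301, minus strand) was at 11.7 to 35.2 CPM in WT myometrium (median 16.0) and 3.32 to 33.1 CPM in KO myometrium (median 23.0). In endometrium it was at 0 to 40.6 CPM in WT (median 1.61) and 0 to 10.5 CPM in KO (median 1.77), and the 40.6 CPM was that of mouse 8.

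Cfap43 (chr19:47812051-47993777, minus strand), an axonemal protein needed for a normal flagellar structure, had its highest medians in myometrium. In WT it was at 9.38 to 57.9 CPM in myometrium (median 26.6), 2.18 to 28.9 CPM in uterus (median 18.4) and 0 to 15.2 CPM in endometrium (median 2.54). In KO it was at 1.98 to 46.0 CPM in myometrium (median 24.5), 0 to 24.4 CPM in uterus (median 6.57) and 0 to 3.03 CPM in endometrium (median 0). The endometrium of WT mouse 8 held 2 of its 394 counts, and the highest sample was the myometrium of the same mouse. Endometrium and myometrium overlapped in both genotypes.

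**Figure D4:**
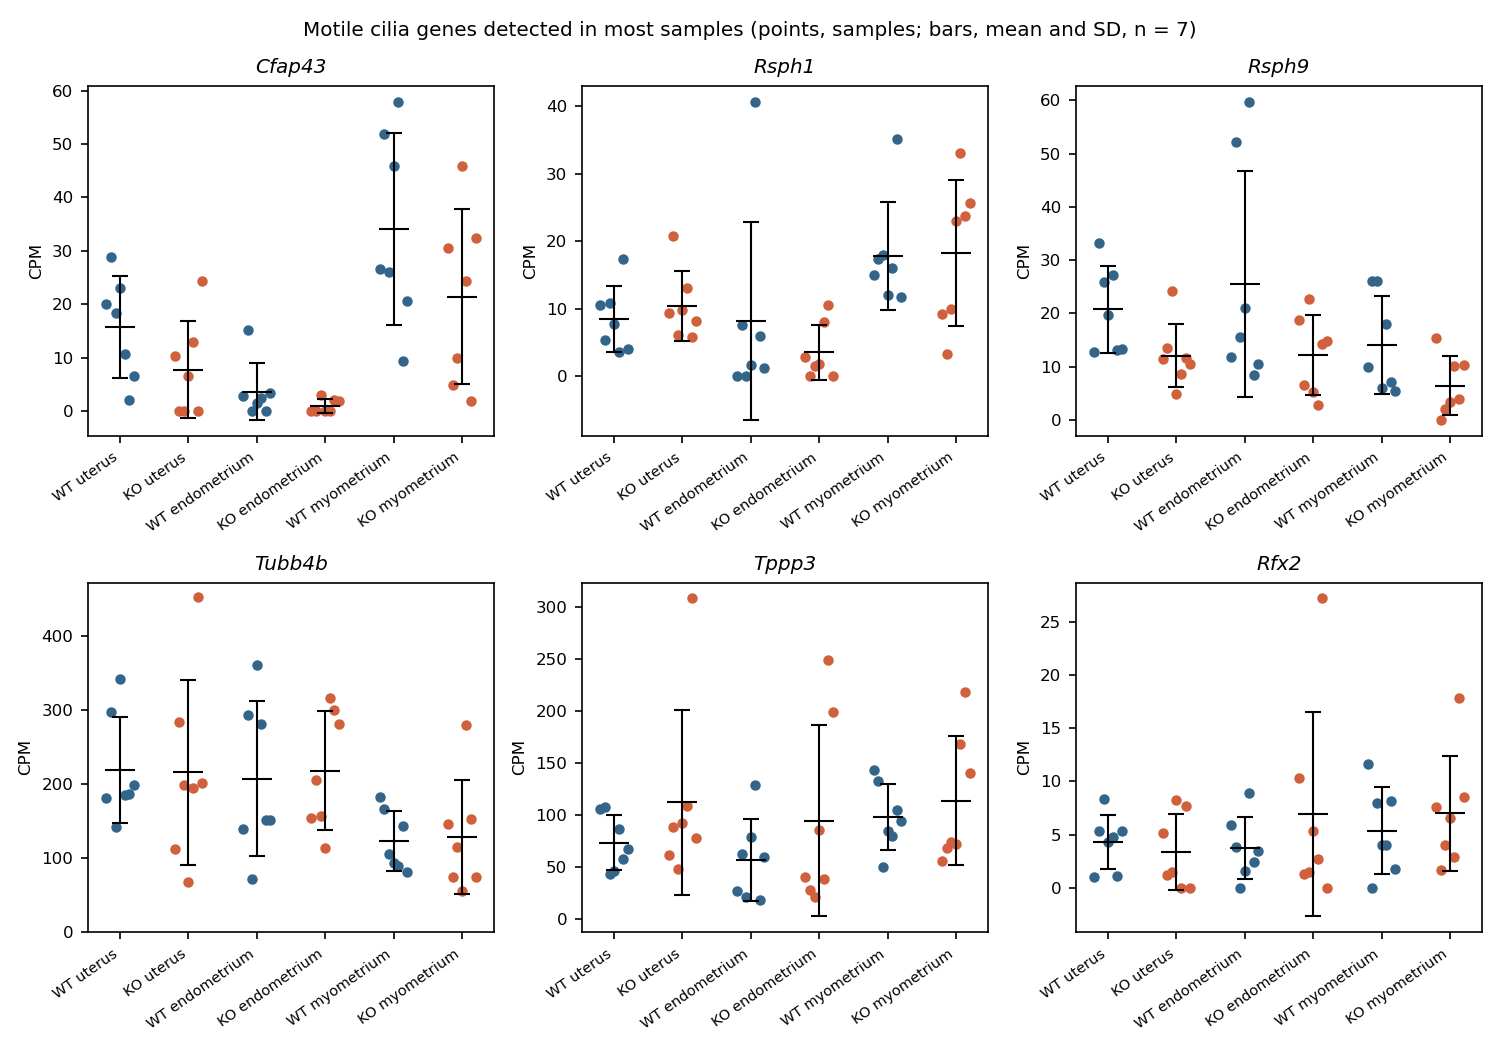
Levels of Cfap43, Rsph1, Rsph9, Tubb4b, Tppp3 and Rfx2 (vertical, CPM, a separate scale for each gene) in the 6 groups of tissue and genotype (horizontal). Points are samples and bars are the mean ± SD of 7 mice; Cfap43 and Rsph1 are lowest in endometrium, with the endometrium of WT mouse 8 as a high point for Rsph1.

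Between the genotypes, none of the cilia genes passed an adjusted p of 0.05 in any tissue by edgeR's quasi-likelihood test with Benjamini-Hochberg adjustment over all genes tested. In uterus 12 of the 38 members passed the filter of 1 CPM in at least 5 samples and 0 were called, where 0.0% of 12959 genes were called. In endometrium it was 0 of 16, with 0.0% of 13004 genes called, and in myometrium 0 of 15, with 0.0% of 12991 genes called. At an unadjusted p of 0.05, 1, 6 and 0 members passed in the 3 tissues, where 5.64%, 5.2% and 4.22% of all genes did. DESeq2 called 0 members in each tissue, and a fit with the position letter of the library (A to C against D to F) as a covariate also called 0 in each. A p that misses the threshold does not show that the genotypes had the same level.

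In uterus the member with the smallest p was Rsph9, with a mean of 20.7 ± 8.22 CPM in WT and 12.1 ± 5.95 CPM in KO (SD, n = 7). Its log2 difference, KO minus WT, was -0.78 with a standard error of 0.35 (adjusted p = 0.836, edgeR). In myometrium Rsph9 was at 14.0 ± 9.19 CPM in WT and 6.40 ± 5.53 CPM in KO, a log2 difference of -0.95 with a standard error of 0.52 (adjusted p = 1.00, edgeR). The genotypes overlapped in both tissues. Tubb4b differed by -0.04 in uterus, with a standard error of 0.31, and by 0.08 in myometrium, with a standard error of 0.27, on the same scale.

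In endometrium the 6 members at an unadjusted p under 0.05 were Fam183b, Ift80, Cfap126, Tekt1, Rsph9 and Foxj1, all with lower values in KO, and 5 of them, all but Ift80, had their highest level in WT mouse 8. Fam183b differed by -6.49 (SE 1.50, adjusted p = 0.598, edgeR) and Foxj1 by -2.50 (SE 1.14, adjusted p = 0.937, edgeR). Cfap126 differed by -3.37, Tekt1 by -3.88 and Rsph9 by -1.09 (adjusted p = 0.765 to 0.930). Without mouse 8, Cfap126 differed by -0.82 and Rsph9 by -0.74 (adjusted p = 0.976 and 0.943), and Tekt1 did not pass the filter. Fam183b then differed by -1.99 (adjusted p = 0.933) and Foxj1 by 2.09 in the opposite direction (adjusted p = 0.933, edgeR). Of the 14 members tested without it, 1 was left at an unadjusted p under 0.05.

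That gene was Ift80, a component of intraflagellar transport that all cilia need. It was at 0 to 17.7 CPM in WT endometrium (median 3.59) and 0 to 1.86 CPM in KO endometrium (median 0), from 21 and 2 counts in all. Its log2 difference was -3.52 (SE 0.87, adjusted p = 0.598, edgeR) with all mice and -3.43 (SE 0.91, adjusted p = 0.849) without WT mouse 8. The groups overlapped, since 1 WT sample and 5 KO samples were at 0.

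Endometrium and myometrium of the same mice were compared within each genotype, which asked in which layer of the wall the genes were expressed. In WT, 16 of the 38 members were tested and 5 were called, where 13.2% of 13227 genes were called. Fam183b, Morn5, Cfap126 and Dynlrb2 were higher in endometrium, where 6.81% of genes were, and Cfap43 was lower, where 6.39% were. Their log2 differences, endometrium minus myometrium, were 5.01 (SE 1.29, adjusted p = 0.00894) for Fam183b and 3.39 (SE 1.07, adjusted p = 0.0339) for Morn5. They were 2.77 (SE 0.90, adjusted p = 0.0390) for Cfap126 and 3.54 (SE 1.17, adjusted p = 0.0435) for Dynlrb2. A gene can pass the filter through the very samples in which it is high, so these counts are a description of the genes tested.

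None of the 4 increases was called without WT mouse 8. Without this mouse, Fam183b differed by 1.57 (adjusted p = 0.420, edgeR) and Cfap126 by 0.04 (adjusted p = 0.983), and Morn5 and Dynlrb2 no longer passed the filter. Of the 12 members tested without it, 4 were called, all lower in endometrium, where 10.1% of 12809 genes were called and 5.0% were called lower. These were Cfap43 (-2.69, adjusted p = 0.0043), Rsph1 (-2.41, adjusted p = 0.00540), Tekt2 (-3.05, adjusted p = 0.0306) and Tppp3 (-1.14, adjusted p = 0.0354), as log2 differences by edgeR. The median difference of the members tested was 0.56 with all mice and -0.46 without mouse 8, and that of all genes tested was 0.01 and 0.00. With the mouse number as a block, which pairs the layers of a mouse, Rsph1 (-1.69, adjusted p = 0.00511) and Tppp3 (-0.97, adjusted p = 0.0111) were also lower with all 7 mice, and Cfap126 was no longer called (1.40, adjusted p = 0.186). The block called 6 of the 16 members and 14.0% of all genes, and DESeq2 called 2 of 16 and 13.2%. Without a filter 13 of 37 members and 10.9% of all genes were called. Leaving out mouse 7 (0.0685) or 12 (0.0537) also ended the call of Cfap126, leaving out mouse 1 (0.0632) or 5 (0.0588) that of Morn5, and leaving out mouse 10 (0.0589) or 12 (0.0656) that of Dynlrb2, as adjusted p by edgeR. Over the 7 fits that left out 1 mouse, Dynlrb2 passed the filter in 3 and was called in 1, and Morn5 passed the filter in 5 and was called in 3.

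**Figure D5:**
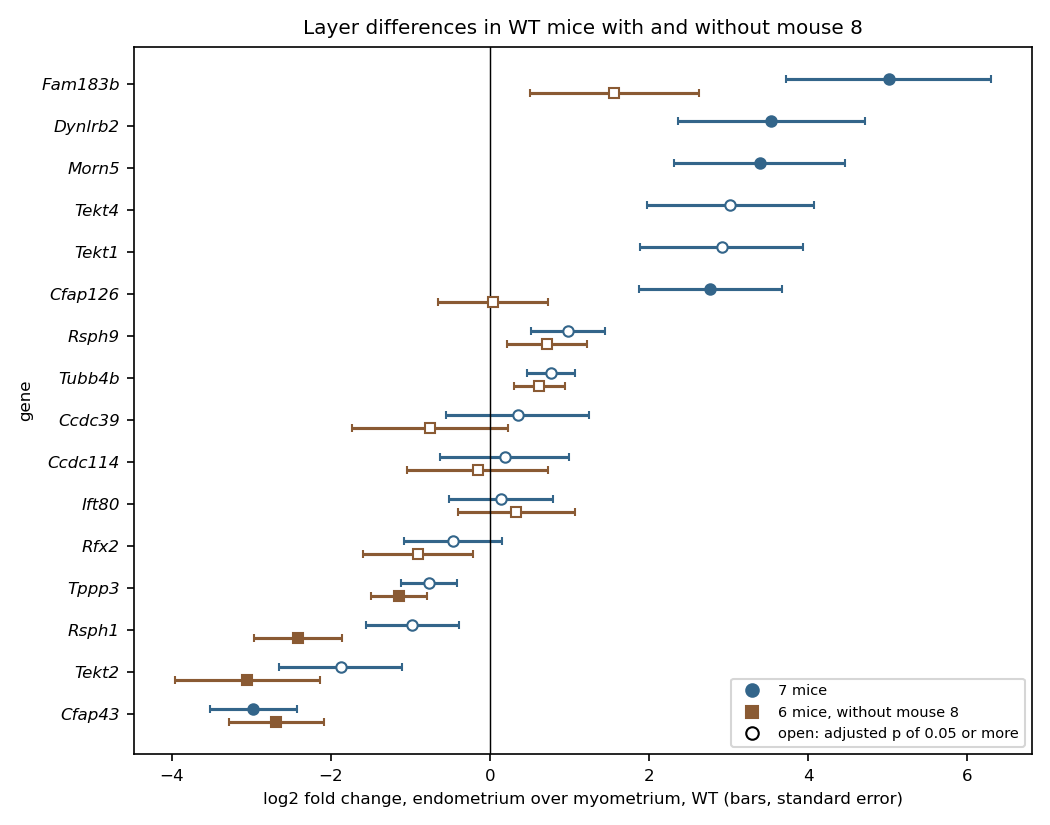
Log2 difference of endometrium minus myometrium in WT (horizontal) for the members tested (vertical), with all 7 mice (circles) and without mouse 8 (squares); bars are standard errors and filled symbols have an adjusted p under 0.05 by edgeR. Fam183b moves from 5.01 to 1.57 and Cfap126 from 2.77 to 0.04, while Cfap43 stays at -2.97 and -2.69; genes with no square were not tested without that mouse.

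Cfap43 was lower in endometrium in both genotypes. In WT its log2 difference was -2.97 (SE 0.55, adjusted p = 0.000397, edgeR), with 34.1 ± 18.0 CPM in myometrium and 3.69 ± 5.28 CPM in endometrium (SD, n = 7), and it was lower in 7 of 7 mice. The endometrium mean without mouse 8 was 3.88 ± 5.75 CPM (SD, n = 6). In KO it was -4.04 (SE 0.67, adjusted p = 0.000124, edgeR), with 21.5 ± 16.3 CPM and 1.00 ± 1.29 CPM (SD, n = 7), and it was lower in 6 of 7 mice. The exception was KO mouse 13, at 2.09 CPM in endometrium, within the range of the other KO endometrium samples. Its myometrium, at 1.98 CPM, was the lowest of the KO myometrium samples. Without this mouse the difference was -4.78 (adjusted p = 2.1e-05, edgeR). The highest WT endometrium sample for Cfap43, at 15.2 CPM, was that of mouse 3, which had a high smooth muscle sum.

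The annotation of Cfap43 overlaps Itprip on the same strand and Gsto1 and Gsto2 on the opposite strand. Gsto1 averaged 2246 CPM in WT endometrium and 427 CPM in WT myometrium, and Itprip 4.99 and 2.29 CPM. The part of the overlapping genes in the counts of Cfap43 was not tested.

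In KO, 15 members were tested and 3 were called, all lower in endometrium, where 19.3% of 12969 genes were called and 8.71% were called lower. Besides Cfap43 these were Rsph1 (-2.03, SE 0.56, adjusted p = 0.0115, edgeR) and Ift80 (-2.55, SE 0.84, adjusted p = 0.0343, edgeR). Rsph1 was lower in endometrium in 7 of 7 KO mice. Ift80 was lower in 5 KO mice, higher in 1 and equal in 1, and it lost its call with the mouse number as a block (-2.47, adjusted p = 0.104) and without mouse 2, 4, 6, 11 or 13 (adjusted p up to 0.114). With the block, Tubb4b was called instead (0.85, adjusted p = 0.00170), higher in endometrium in 7 of 7 mice, against 0.76 (adjusted p = 0.0808) without the block, and the block called 3 of 15 members and 21.4% of all genes. With spike-in scaling, the KO calls were Tubb4b higher and Cfap43 lower, where 23.5% of all genes were called. The median difference of the KO members tested was -0.68, and that of all genes tested was 0.07.

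The summed smooth muscle level moved with the layer as well, and its 4 genes were each called lower in endometrium in both genotypes, as the 4 epithelial genes were each called higher. The part of smooth muscle in the difference of Cfap43, Rsph1 and Tppp3 was not tested. Foxj1 was at 0 in all 7 WT myometrium samples and had 1 count in 1 of the 7 KO myometrium samples.

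Of the further motile cilia genes outside the list, 3 of 33 tested in WT (Capsl, Cfap20 and Ttc25) were higher in endometrium, and without mouse 8 it was 0 of 26. In KO, Capsl and Cfap20 were higher and Nme5 was lower, of 30 tested. Of the intraflagellar transport and primary cilium genes, 1 of 32 was called in each genotype, both lower in endometrium, which was Arl3 in WT and Wdr35 in KO. Of all genes tested, 13.2% were called in WT, with 6.81% higher and 6.39% lower in endometrium. The share called was 10.1% in WT without mouse 8 and 19.3% in KO, where 8.71% were lower. None of either list was called between the genotypes in any tissue.

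The difference between the layers did not differ detectably between the genotypes for any member. Of 23 members tested for an interaction of genotype and layer, 0 were called by edgeR or DESeq2, where 0.0% of 14314 genes were called by edgeR, and 3 passed an unadjusted p of 0.05, where 4.6% of all genes did. The smallest p was that of Morn5, with an interaction of -5.82 on the log2 scale (adjusted p = 0.970, edgeR), and without mouse 8, which held 25 of its 42 counts, 2 members passed the unadjusted p.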

How the data were processed

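RNA of uterus, endometrium and myometrium was measured by STRT RNA-seq. The authors deposited raw counts of molecules per gene, whole numbers with no scaling or filter, for 45 libraries, 24422 gene symbols and 92 ERCC spike-ins. According to the methods and the labels, reads sharing a molecular identifier were joined, aligned to mm9 with TopHat and counted over UCSC gene models with Homer, while the submitters' processing notes list HTSeq. The use of strand and of reads with several positions was not given in the sources used here, so overlapping genes and near-identical copies are uncertain. The spike-ins made up 0.784% to 2.95% of counts per library.

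Samples were grouped by the labels. Repeat libraries of a mouse were summed. Genes reaching 1 CPM in 5 or more of the samples compared were fitted with edgeR 4.0.16 (R 4.3.3), TMM factors and the quasi-likelihood test, and p-values were adjusted over all genes tested, with a threshold of 0.05. The genotypes were compared within a tissue, the layers within a genotype, and the 2 layer differences with each other. Standard errors are the log2 difference divided by the root of the F statistic. Each mouse was 1 replicate within a tissue. In the main fits of the layers and of the interaction, the 2 samples of a mouse were treated as independent. The scripts were tested on simulated counts. Alternatives were DESeq2 1.42.0, other size factors, spike-in scaling, other filters, the first repeat library, the position letter as a covariate, leaving out each mouse and, for the layers, the mouse number as a block, a term of the same model. The mouse numbers of the labels mark the same animal, so they pair the layers. Over 14822 genes, the deviations of both layers from their group means correlated by 0.0282 to 0.123 within WT mice and by 0.0856 to 0.180 within KO mice, against means of -0.0146 and -0.0213 between different mice.

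Counting intervals are exact Poisson intervals at 95%. Gene positions are from GENCODE vM1 on NCBIM37, which corresponds to mm9. The genes and lists were chosen with earlier results of these data known. The text names the regulators, the 10 genes with the most counts and, per comparison, up to 6 genes called or the one with the smallest p, the 10 most correlated non-members and up to 4 genes of other lists by their counts. The other genes named were chosen after their values were seen.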

Additional observations from a re-analysis of the deposited data

Results flagged for a closer look

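A rule for single samples was run on the regulators, the members with the most counts, the members picked per comparison and summed levels. Other genes described above, such as Dnali1 and Tctex1d4, were not examined with it. The rule singled out the highest or lowest sample of a group of 7 by its gap to the nearest other sample. On a log2 scale, this gap had to be more than 0.568 of the range of the group (Dixon's 95% critical value). Of 76 groups examined, 11 met this. A group with 6 samples at 0 and 1 sample with counts meets the rule by construction. The 11 of 76 can therefore not be set against a chance rate. In 7 of them the sample was the endometrium of WT mouse 8, the highest of its group. Its values were 1406 CPM for the sum of the members without Tubb4b, 59.7 CPM for Foxj1, 197 CPM for Ccdc153, 175 CPM for Fam183b, 90.2 CPM for Cfap126, 154 CPM for Pifo and 113 CPM for Dynlrb2. In the other 6 WT endometrium samples the sum was 53.8 to 156 CPM, and Ccdc153 was at 0 in each.

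The remaining 4 were in other samples. Foxj1 was at 5.02 CPM in the uterus of WT mouse 5, from 6 counts, and at 0 in the other 6 WT uterus samples. Rfx3 was at 7.75 CPM in the endometrium of WT mouse 5, from 3 counts, and at 0 in the other 6. Dynlrb2 was at 5.32 CPM in the uterus of WT mouse 12, against at most 1.05 CPM in the other 6. Rsph1 was at 35.2 CPM in the myometrium of WT mouse 10, from 30 counts, against 11.7 to 18.0 CPM in the other 6.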

How the results depend on the processing

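Between the genotypes, 0 members were called under each of the alternatives run. Of all genes, DESeq2 called 7 in uterus and 1 in endometrium, spike-in scaling called 1 and no filter 3 in myometrium, and leaving out 1 mouse gave 0 to 1 in uterus and 0 to 1 in myometrium. Foxj1 in endometrium reversed to 2.12 under DESeq2, and over the fits without 1 mouse it ranged from -3.47 to 2.09, positive without mouse 8. For the WT layers, the 5 members called became 2 under DESeq2 (Cfap43 and Rsph1, both lower), 13 with no filter and 1 with a filter at 10 CPM (Cfap43), and 3 to 6 without 1 mouse (3 without mouse 7, 10 or 12), while 1158 (without mouse 10) to 1825 genes were called. Under DESeq2, Dynlrb2 in WT was at -1.03, with no adjusted p, and Fam183b at 0.38, with none either. For the KO layers, the 3 members became 1 with a filter at 10 CPM (Rsph1). With the mouse number as a replicate block, 6 members were called in WT and 3 in KO, and 10 genes but 0 members for the interaction, against 0 genes without the block; beyond the calls given above, the block changed none of the named members. Spike-in scaling moved the median difference of all genes tested to -0.37 in KO against WT uterus, 0.27 in endometrium, 0.21 and 0.58 for the WT and KO layers and 0.35 for the interaction, and ended the KO calls of Rsph1 (-1.47, adjusted p = 0.0658) and Ift80. The summed level in WT uterus went from 359 to 490 CPM with spike-in scaling. Without Tubb4b it was 140 CPM in WT uterus, 163 in KO uterus, 133 in KO endometrium and 191 in WT myometrium. Of 82 further values of named members outside the fits without 1 mouse, 72 kept direction and side of the threshold, 8 lost the call and 2 reversed; without 1 mouse it was 106, 13 and 1. The causes were not tested. Depth limits most members: 24 of 38 had at least 20 counts in all.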

Other observations

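The endometrium of WT mouse 8 also stood apart in genes outside the 2 lists of motile cilia genes. Whether those genes act in cilia was not examined, so they are not a set without cilia genes. Of 13581 genes with at least 20 counts, 46 had at least 50% of their summed CPM in this sample, and 12 of the 46 were members and 5 were further listed cilia genes. The myometrium of KO mouse 9 held 2 such genes, the uterus of WT mouse 8 and the uterus of KO mouse 2 held 1 each, and the other 38 samples held none. Among the genes outside both lists with the most counts were Ovgp1, 1500015O10Rik at 951 CPM (749 of 1280 counts), Dcpp1 at 693 CPM (546 of 555 counts) and Odf3b, which encodes an outer dense fiber protein, at 269 CPM (212 of 308 counts).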
